A study of Mus musculus with 2 samples.

Results

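The 44 genes described here drive the cell division cycle or copy DNA during it, and were compared between a neural progenitor line overexpressing EGFP and one overexpressing Pax6. They were taken by name: every non-control probe whose gene name, or current symbol by its accession, is one of the 44 (Cdk1 is listed on the array as Cdc2a). All 44 had a probe, 75 probes of 41168 in all, and all 44 were well above background on both arrays, among 19243 genes that were so on at least 1 array. Of these, 14 act in G1 and at its exit, 13 in S phase and 17 in G2 and mitosis.

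The parent of both lines is N31, neural progenitor cells of mouse strain 129/Ola. N31 was itself derived from induced pluripotent stem cells made from NSEB5-2C, and doxycycline switches on 4 reprogramming factors in it, c-Myc, Klf4, Oct3/4 and Sox2. Either EGFP, a green fluorescent protein, or Pax6, a paired-box transcription factor, was added under the CAG promoter (CAG-EGFP-IP and CAG-Pax6-IP) with the Tol2 transposon. The labels do not say whether each line is 1 clone or a pool. RNA was taken 24 h after doxycycline, when only the EGFP line had visibly changed shape, and 1 one-colour array was hybridised per line. Both lines received doxycycline, so the comparison is of Pax6 with EGFP and not of reprogramming with no reprogramming.

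In G1, D-type cyclins with Cdk4 or Cdk6 start the phosphorylation of Rb1, and cyclin E with Cdk2 continues it, which frees E2F factors to switch on genes of DNA synthesis. Cdc6 and Cdt1 load the Mcm2 to Mcm7 helicase onto origins, and Gmnn keeps Cdt1 from loading it again. Later, cyclins A and B with Cdk1 take the cell into mitosis, where Plk1, the Aurora kinases and the spindle checkpoint control chromosome segregation. Neural progenitors and cells in early reprogramming both divide, and most of these genes are transcribed in waves, by E2F for S phase and through CHR elements (cell cycle genes homology regions) with CCAAT boxes for mitosis.

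The promoter windows below show these elements in the genes that follow. Sequences are RefSeq's (GRCm38.p6, a different build from the array's), from 250 bases before to 30 bases after the start, 280 bases in all, 5′ to 3′ on the gene's strand. Capitals mark matches on either strand to the E2F core (spelled as TTCCCGC, under a common variant as TTCGCGC, with one further exchange as TTGCCGC, or in its last searched form as TTGGCGC), the CHR (TTTGAA or TTCGAA) or the CCAAT box (CCAAT). Adjacent or overlapping matches run together, and TTCGAA reads the same on both strands. Mcm3 (chr1:20820283-20820562, minus strand) and Mcm6 (chr1:128359676-128359955, minus strand) stand for the S group, and Cdk1 (chr10:69352883-69353162, minus strand), Ccnb2 (chr9:70421525-70421804, minus strand) and Cdc25b (chr2:131186698-131186977, plus strand) for the mitotic group. Cdk6 (chr5:3343643-3343922, plus strand), a G1 gene with one of the larger differences between the lines, has none of these letters in its window. These 6 were chosen after the matches and the differences were seen.
Mcm3: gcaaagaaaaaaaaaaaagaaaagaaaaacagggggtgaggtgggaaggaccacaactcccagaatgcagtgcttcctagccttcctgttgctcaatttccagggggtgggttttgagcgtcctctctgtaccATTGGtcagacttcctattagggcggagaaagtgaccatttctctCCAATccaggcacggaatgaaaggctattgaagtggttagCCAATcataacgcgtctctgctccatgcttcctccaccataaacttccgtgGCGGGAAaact
Mcm6: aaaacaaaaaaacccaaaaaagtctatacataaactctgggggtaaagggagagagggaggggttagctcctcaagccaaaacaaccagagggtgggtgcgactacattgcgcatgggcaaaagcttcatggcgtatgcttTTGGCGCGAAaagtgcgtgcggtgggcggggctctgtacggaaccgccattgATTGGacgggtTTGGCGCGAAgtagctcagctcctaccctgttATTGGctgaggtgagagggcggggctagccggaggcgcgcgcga
Cdk1: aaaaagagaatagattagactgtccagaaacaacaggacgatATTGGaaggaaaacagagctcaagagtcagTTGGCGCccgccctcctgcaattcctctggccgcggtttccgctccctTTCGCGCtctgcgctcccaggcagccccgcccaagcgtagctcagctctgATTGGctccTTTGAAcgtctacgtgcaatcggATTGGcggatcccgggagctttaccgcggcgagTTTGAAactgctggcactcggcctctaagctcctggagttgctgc
Ccnb2: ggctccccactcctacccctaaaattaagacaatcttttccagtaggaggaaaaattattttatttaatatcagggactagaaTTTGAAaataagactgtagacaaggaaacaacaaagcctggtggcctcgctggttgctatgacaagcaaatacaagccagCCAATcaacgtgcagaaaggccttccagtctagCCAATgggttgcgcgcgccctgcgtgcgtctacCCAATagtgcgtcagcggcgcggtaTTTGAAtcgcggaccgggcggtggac
Cdc25b: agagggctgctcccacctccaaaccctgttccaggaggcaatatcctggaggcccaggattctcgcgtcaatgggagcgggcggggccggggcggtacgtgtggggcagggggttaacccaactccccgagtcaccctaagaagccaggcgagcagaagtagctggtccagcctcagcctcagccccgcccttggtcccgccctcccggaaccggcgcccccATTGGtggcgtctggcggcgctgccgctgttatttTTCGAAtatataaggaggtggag
Cdk6: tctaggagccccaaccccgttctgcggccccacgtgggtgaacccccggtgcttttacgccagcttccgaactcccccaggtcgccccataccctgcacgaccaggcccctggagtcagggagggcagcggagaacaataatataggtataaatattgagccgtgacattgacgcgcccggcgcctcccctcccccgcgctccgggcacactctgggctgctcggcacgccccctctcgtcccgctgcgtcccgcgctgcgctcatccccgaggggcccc

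A window was listed for 35 of the 44 genes (39 windows). The E2F core was found in 75% of the 12 S group windows, 30.8% of the 13 G1 windows, 21.4% of the 14 mitotic windows and 8.9% of all 32851 windows of the same length. The CHR went the other way, with 71.4% of mitotic windows against 16.7% of S windows, 15.4% of G1 windows and 18.4% of all windows. The CCAAT box was in 92.9% of mitotic windows, 75% of S windows and 36.1% of all windows. CHR and CCAAT box stood together in 10 of 14 mitotic windows (71.4%) and in 6.92% of all windows. The choice of genes did not use these letters. A match describes the letters in the window and shows no binding.

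**Figure D1:**
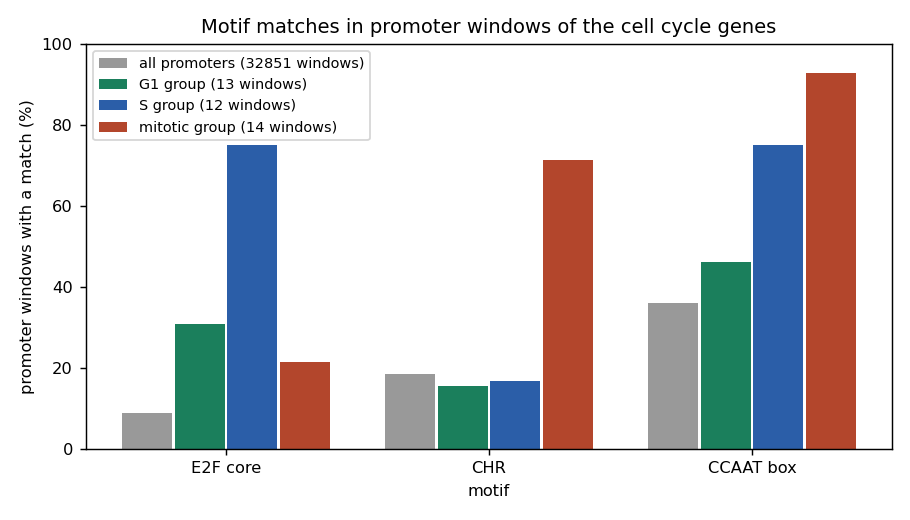
Share of promoter windows (y axis, percent) with at least 1 match to each motif (x axis), for all windows (grey) and the G1, S and mitotic groups (colours). The S group has the highest share for the E2F core (75%) and the mitotic group the highest for the CHR (71.4%) and the CCAAT box (92.9%).

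The arrays were close in general measures. Spots clearly above background made up 64.7% of the EGFP array and 67.2% of the Pax6 array, leaving out control spots, and none was saturated. Signals below are the scanner's processed signals, and each log2 difference is Pax6 minus EGFP after scaling each array to its 75th percentile (a signal of 854 for EGFP and 991 for Pax6). Signals are printed before scaling, so a gene with equal scaled levels reads somewhat higher on the Pax6 array. With 1 array per line no difference has a replicate check, and no p-value is given. The brightest probe of Pax6 itself read 557 and 822, a difference of 0.35 ± 0.20, and a second probe 0.26 over 9 spots. Whether either lies in the part of the gene carried by the transgene was not tested. The error after ± is the scanner software's measurement error of the difference, about 0.20 for every member, and where a probe has replicate spots their SD is given. Neither covers the spread between cultures. In RNA from whole cultures, a smaller share of dividing cells and less RNA per dividing cell cannot be told apart. Of the 15 neural progenitor markers 13 were above background on each array, with Vim at 99622 and 126293. The list moved in both directions, with log2 differences of -1.66 for Nes (4678 and 1711), -3.69 for Slc1a3 (306 and 27.5) and 1.74 for Sox2 (79.2 and 307). Fabp7 gave signals of 12.3 and 19.7 and Sox1 of 19.2 and 18.7, both close to background, and Olig2 and Hes5 were on neither. Epithelial markers were lower on the Pax6 array in 7 of 7 measured genes, with a median of -1.54 (Cdh1 -3.40, Epcam -1.96, Cldn3 -1.56 and Krt8 -1.54) and a summed signal of 59720 for EGFP and 25257 for Pax6. Of 8 fibroblast markers 3 were at least 2-fold higher and 3 lower, among them Dcn at 2.95 and Col1a1 at -2.33. Fap, counted as higher, and Thy1, counted as lower, were each above background on 1 array alone, which fixed their side of 0. The summed fibroblast signals before scaling, 94808 and 62513, were mostly Col1a2 (90871 and 46506). Neuron markers were below 0 in 6 of 7 measured genes (median -0.35, Snap25 -1.66). Rbfox3, 1 of the 6, was above background on the EGFP array alone, which fixed its side of 0. The summed neuron signals before scaling were 12604 and 14369, with the largest part from Nefl (5327 and 8011). Astrocyte markers were above 0 in 4 of 5 (median 0.60). Of these 4, Gfap and Aqp4 were above background on the Pax6 array alone, which fixed their side of 0. The summed astrocyte signals before scaling, 4684 and 5466, were mostly Aldoc (4268 and 4673), which differed by -0.08. The part of these cell types in the differences below was not tested. Of the 6 blood and microglia markers 5, among them Ptprc and Aif1, were on neither array.

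Cell cycle and replication genes were expressed at near-equal levels in the Pax6 and EGFP lines. None of the 44 differed by 2-fold or more, against 4.72% of all 19243 genes (2.35% higher and 2.37% lower). Those shares include many dim probes, and among the 8058 genes with a mean level above the 75th percentile, where 39 of the 44 lie, 1.18% differed by 2-fold (0.707% higher and 0.472% lower). At that share less than 1 gene in 44 would be counted, so the count of 0 does not set these genes apart from others as bright. With normexp background correction the split over all genes was 176 higher and 109 lower, beside 452 and 456 here. At 1.5-fold, 2 of 44 were higher (Ccnd1 and Cdk6) and 0 lower, against 5.91% and 7.67% of all genes, and 2.42% and 2% of the brighter ones. More than 1 measurement error separated the lines for 11 of the 44, or 25%, close to the 28.2% of the brighter genes, while over all genes the share was 40.7%. Ccnd1 and Cdk6 differed by more than 2 errors. The quartiles of the brighter genes were -0.11 and 0.13.

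**Figure D2:**
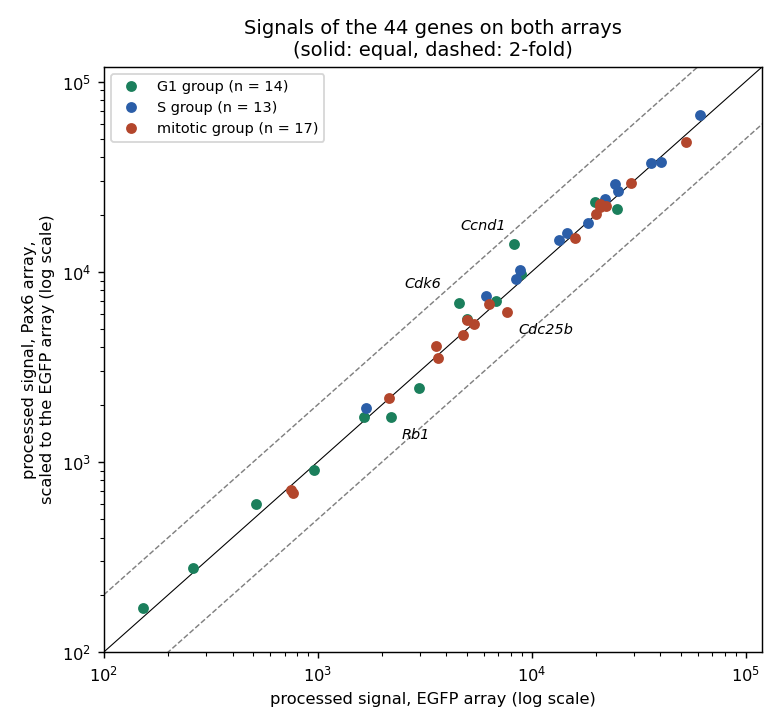
Processed signal of each gene's brightest probe on the EGFP array (x axis) and on the Pax6 array scaled to it (y axis), both on log scales, 1 point per gene, coloured by group. All 44 points lie between the dashed 2-fold lines, and Ccnd1 and Cdk6 are farthest above the line of equality.

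The 3 role groups were set side by side. The median difference was 0.09 for the G1 group (range -0.35 to 0.75), 0.12 for the S group (-0.09 to 0.29) and -0.01 for the mitotic group (-0.33 to 0.19). Over all genes it was -0.01, and over the genes with a mean above the 75th percentile 0.01. Above 0 were 10 of 14 G1 genes, 11 of 13 S genes and 7 of 17 mitotic genes, against 47.1% of all genes and 53% of those with a mean above the 75th percentile. With each array scaled by its median, which moved all genes up, 14 of 17 mitotic genes and 60.0% of all genes were above 0. Relative to the median of all genes, the S group stood at 0.12 and the mitotic group at -0.01. No test between the groups was possible with 1 array per line.

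**Figure D3:**
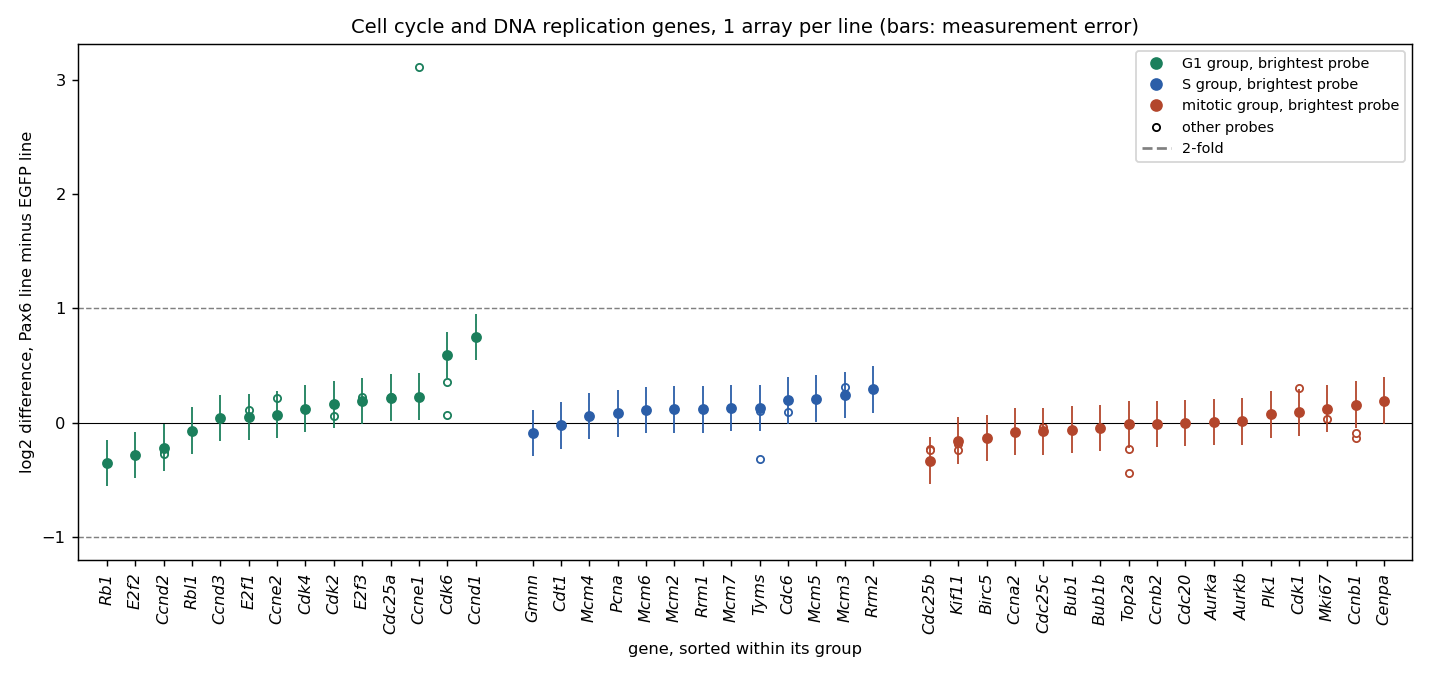
Log2 difference, Pax6 line minus EGFP line (y axis), for each gene (x axis, sorted within its group). Filled points are the brightest probe with its measurement error, open points other probes on both arrays, and dashed lines 2-fold. The S genes lie in a narrow band from -0.09 to 0.29, the G1 genes spread from -0.35 to 0.75, and the open point above the band is the second Ccne1 probe at 3.11.

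Among the G1 genes, the D-type cyclins, which carry growth signals to the cycle, went in different directions. Ccnd1 read 8285 in the EGFP line and 16181 in the Pax6 line, a difference of 0.75 ± 0.20, or 1.68-fold higher on the Pax6 array. All 10 of its replicate spots lay between 0.70 and 0.83 (SD 0.05), and 96.1% of all genes had a lower difference. Ccnd2 was slightly lower in the Pax6 line. Its 3 probes gave -0.22, -0.26 and -0.28, with signals of 25050 and 24972 for the brightest. Ccnd3 read 6854 and 8163, a difference of 0.04. The Ccnd1 probe is placed by the array design on an unassembled part of chromosome 7 (7_random, 7568179 to 7568238, mm7), and the brightest Ccnd2 probe on chromosome 6, 127163669 to 127163728.

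Of the kinases that partner the D cyclins, Cdk6 was higher on the Pax6 array by its brightest probe and Cdk4 was not clearly so. Cdk4 read 8950 and 11295, a difference of 0.12 ± 0.20. For Cdk6 the brightest probe (chromosome 5, 3535293 to 3535352) read 4559 and 7973, a difference of 0.59 ± 0.20, or 1.51-fold. That probe cites a thymus cDNA clone which the array names Cdk6. The 2 probes that cite the RefSeq transcript gave 0.07 ± 0.20 (signals 386 and 469) and 0.35 ± 0.22 (49.8 and 73.9), so the 1.5-fold call rests on 1 probe, and the mean over all 3 probes was 0.34. Cdk2, the partner of cyclin E, was dim, at 152 and 198, with a difference of 0.16 ± 0.21.

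The probes of Ccne1, which encodes cyclin E1, disagreed. The brightest read 19779 and 26880, a difference of 0.23 ± 0.20, within the range of the other members. The second read 102 in the EGFP line and 1027 in the Pax6 line, a difference of 3.11 ± 0.21, or 8.65-fold higher. Both cite the same transcript and share one listed place (chromosome 7, 34990690 to 34990713, mm7), which spans 24 bases. Each is a single spot, well above background on both arrays and not marked as an outlier. The gap of 2.88 between them was exceeded by 2 of the 5800 genes with several measured probes, whose median gap is 0.16. Which part of the transcript each probe reads was not tested. For the related Ccne2 the 2 probes gave 0.07 (263 and 320) and 0.21 (150 and 202).

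Rb1, the pocket protein that holds E2F in check, was the lowest of the 44 by its brightest probe. It read 2195 and 1992, and its 10 spots all lay between -0.39 and -0.30 (mean -0.35, SD 0.02). A second, dim probe was above background on the Pax6 array alone (signals 11.7 and 27.1), which fixed its side of 0. Its lower bound was 0.99 ± 0.42, or 1.99-fold, and does not show that the Rb1 probes point in opposite directions. The mean of the 2 probes was 0.32. The related Rbl1 (p107) read 956 and 1056, a difference of -0.07.

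The E2F genes that activate S-phase transcription differed by -0.29 to 0.19. E2f1 read 1655 and 1988 (0.05 ± 0.20), and its second probe gave 0.11 with an SD of 0.05 over 10 spots. E2f2 read 2992 and 2849 (-0.29 ± 0.20). E2f3 read 4966 and 6561 (0.19 ± 0.20), and its other measured probes gave 0.21 and 0.22. Cdc25a, the phosphatase that activates Cdk2 at the start of S phase, gave 0.22 with both probes (signals of 517 and 698 for the brighter).

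In the S group, the helicase genes all read slightly above 0, with a measurement error of 0.20 for each single gene. Mcm2 read 8479 and 10659 (0.12), Mcm3 24578 and 33726 (0.24), and Mcm4 36014 and 43515 (0.06). Mcm5 read 8852 and 11877 (0.21), Mcm6 61496 and 77017 (0.11), and Mcm7 22123 and 28032 (0.13). All 6 were above 0, against 47.1% of all genes and 53% of those with a mean above the 75th percentile. Their median of 0.12 lay inside the quartiles of those brighter genes (-0.11 and 0.13). The second Mcm3 probe gave 0.31. Of the 4 other processing settings that change differences between genes, 3 left all 6 above 0, and with normexp background correction Mcm4 stood at -0.01.

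The factors that load and restrain the helicase lay on both sides of 0. Cdc6, which recruits it to origins, read 1680 and 2229 (0.19), and a second probe gave 0.09. Cdt1, its loading partner, read 18291 and 20872 (-0.02), and Gmnn, the Cdt1 inhibitor geminin, 40244 and 43824 (-0.09). The 3 enzymes that make DNA precursors were above 0. Rrm2, the regulated subunit of ribonucleotide reductase, read 6090 and 8649 and had the largest difference of the group (0.29 ± 0.20, 1.22-fold). Its partner Rrm1 read 14705 and 18487 (0.12), and Tyms, thymidylate synthase, 13504 and 17121 (0.13). A second bright Tyms probe gave 0.10, and a probe close to background gave -0.32 ± 0.28. Pcna, the sliding clamp of the replication fork, read 25241 and 30941, and its 10 spots averaged 0.08 (SD 0.04).

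Mitotic genes centred on no difference. Ccna2, cyclin A2, read 15888 and 17445 (-0.08), and Ccnb2 22299 and 25610 (-0.01). The 3 probes of Ccnb1, cyclin B1, gave 0.16, -0.09 and -0.14 (5003 and 6474 for the one used), which differ in sign within their errors. Their kinase Cdk1 read 6344 and 7830 (0.09), and a probe close to background gave 0.30 ± 0.32. Of the phosphatases that activate it, Cdc25b was the lowest mitotic gene and lower with all 3 probes (-0.33, -0.23 and -0.24, signals of 7714 and 7097 for the brightest). Cdc25c gave -0.08 (748 and 823) and -0.04.

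The mitotic kinases were nearly equal. Aurka read 20058 and 23348 (0.00), Aurkb 2160 and 2524 (0.01), and Plk1, the kinase of centrosome maturation and mitotic entry, 20869 and 25427 (0.07). Bub1 and Bub1b, of the spindle checkpoint, read 3658 and 4066 (-0.06) and 4788 and 5370 (-0.05). These 5 genes spanned only -0.06 to 0.07. Cdc20, the activator of the anaphase promoting complex, read 29240 and 33805 (-0.01).

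The remaining mitotic genes, among them common proliferation markers, were also close. Mki67, the Ki-67 antigen, read 20879 and 26352 (0.12), and its second probe gave 0.03. Top2a, which untangles chromosomes, read 5395 and 6194 (-0.02), but its dimmer probes gave -0.45 ± 0.20 (543 and 462) and -0.23 ± 0.23. Birc5, or survivin, read 52924 and 55918 (-0.14), and the spindle motor gene Kif11 767 and 796 (-0.16), with -0.18 and -0.24 from its other probes. Cenpa, the centromeric histone, was the highest of the group at 3563 and 4718 (0.19 ± 0.20).

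For members with several probes, the probes were set side by side. Of 18 members with several probes on both arrays, 16 had all of them on 1 side of 0, the exceptions being Ccnb1 and Tyms. Rb1 is not among the 18, because its second probe was above background on 1 array alone. The share on 1 side of 0 was not counted over all genes with several probes on both arrays, so the 16 are a description. The median range over probes was 0.10, against 0.16 over all 5800 such genes. A range of at least 1 was found for 1 member, Ccne1, and for 1.62% of all such genes. Of the 75 probes 4 were above background on neither array.

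The differences are set here beside the promoter letters shown above. Above 0 were 47.1% of all genes and 53% of the brighter ones. The 15 genes with an E2F core match had a median difference of 0.16, with 13 above 0, and the 20 without one 0.02, with 11 above 0. By role group, 8 of the 15 are S, 4 G1 and 3 mitotic, so match and role group overlap in part. The 3 mitotic genes with an E2F core match, Ccnb1, Cdk1 and Mki67, differed by 0.16, 0.09 and 0.12, beside a median of -0.01 for the whole mitotic group. The 14 genes with a CHR match had a median of -0.01, with 6 above 0, and the 21 without one 0.12, with 18 above 0. Mcm6, with overlapping E2F matches at -109 and at -46 from the start, differed by 0.11, and Cdk1, with matches of all 3 kinds, by 0.09. Cdc25b, whose CHR match begins at base 8 after the start, differed by -0.33. For the CCAAT box the medians were 0.10 with a match (26 genes) and 0.12 without (9 genes). Of the 14 genes with a CHR match 10 are mitotic, so match and role group overlap in the CHR split. The 2 in the S group had a median of 0.12, and the 2 in the G1 group, E2f2 and E2f3, -0.05 (-0.29 and 0.19). None of these splits was tested.

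Other genes of the cycle, in 10 lists of 135 further genes, were counted in the same way. Of 126 measured, 1 was higher in the Pax6 line by 2-fold or more and 0 were lower, against 0.707% and 0.472% of the brighter genes and 2.35% and 2.37% of all genes. Their median was 0.01. Not every replication list lay mostly above 0, where 47.1% of all genes and 53% of the brighter ones lay. Origin and replisome genes had a median of 0.00 with 6 of 13 above 0 (from Orc1 at -0.25 to Orc2 at 0.28), and polymerase and fork genes 0.05 with 12 of 19 above 0 (from Rfc4 at -0.22 to Rpa3 at 0.19). Other nucleotide supply genes had a median of -0.01, with Tk1 lowest at -0.20.

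Lists of mitosis lay close to 0 as well. Kinetochore and spindle checkpoint genes had a median of 0.04 over 13 genes (Spc24 -0.19, Mad1l1 0.25), spindle motors and cytokinesis genes -0.01 over 15 (Kif15 -0.16, Kif4 0.16), and genes of the anaphase promoting complex and chromosome separation 0.02 over 19 (Smc2 -0.20, Fbxo5 0.28). Checkpoint kinases and regulators of Cdk1 stood at 0.03 over 12 (Chek2 -0.20, Atm 0.29). Other cyclins stood at -0.08 with 1 of 8 above 0 (Ccnk -0.18, Ccnc 0.04), beside 47.1% of all genes and 53% of the brighter ones. None of the 8 differed by more than its measurement error.

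The larger differences were among Cdk inhibitors and further E2F genes. Cdkn2c, the Cdk4 and Cdk6 inhibitor p18Ink4c, read 477 and 1795, a difference of 1.70 ± 0.20, or 3.25-fold higher on the Pax6 array, and its second probe gave 1.84 (379 and 1572). Cdkn1a, the p53-induced Cdk inhibitor p21, was 1.76-fold lower (1653 and 1091, -0.81, SD 0.03 over 10 spots). The other measured Cdk inhibitors, Cdkn1b, Cdkn2a, Cdkn2b and Cdkn2d, differed by 0.16, -0.04, 0.15 and 0.13. Among the further E2F and pocket protein genes, E2f5, a repressor that works with pocket proteins, was lowest at -0.61 ± 0.20 (4195 and 3196), with -0.60 from a second probe. E2f8, an atypical repressor, was highest at 0.47 ± 0.20 (315 and 508).

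**Figure D4:**
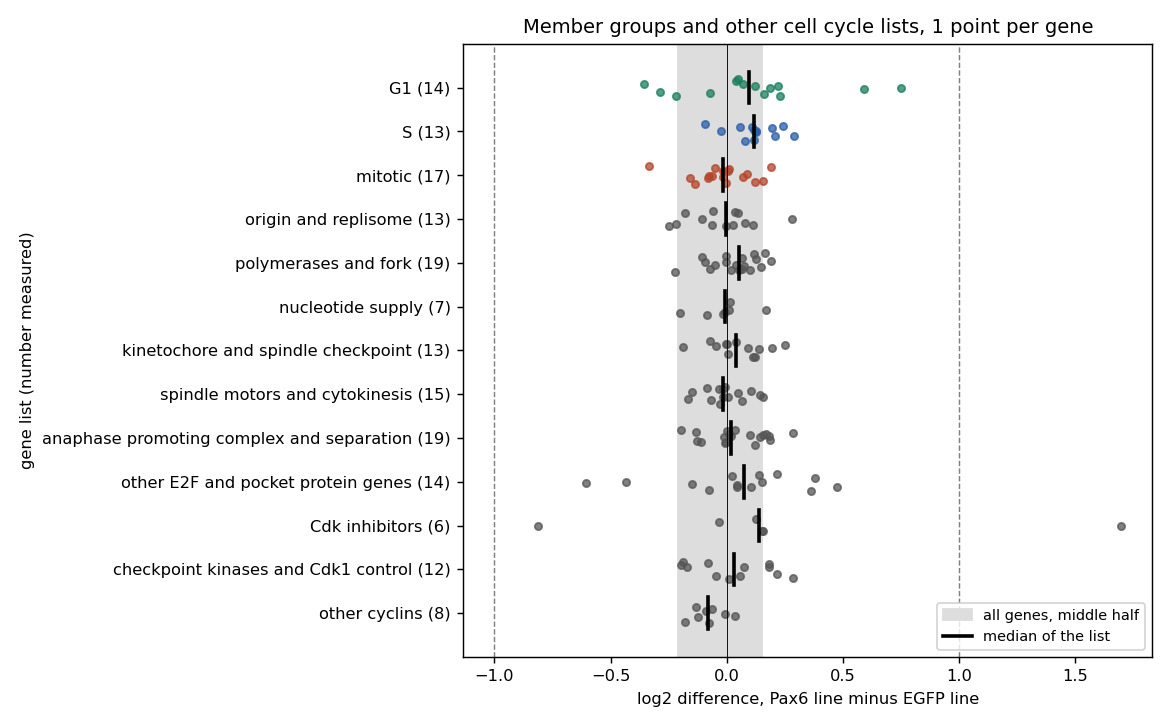
Log2 difference, Pax6 line minus EGFP line (x axis), for each gene (points) of the 3 member groups and 10 further cell cycle lists (y axis, with the number measured). Black bars are list medians, the grey band spans the quartiles of all genes (-0.21 to 0.15) and dashed lines mark 2-fold. Cdkn2c at 1.70 is the point beyond 2-fold, and list medians lie between -0.08 and 0.14.

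Scalings that shift all genes alike, the series table and the filters on dim probes cannot reorder the group medians. In the 4 settings that can (quantile, cyclic loess, normexp and the mean of a gene's probes), the G1 and S medians lay above the mitotic median and the median of all genes. Over every setting tried, the S group median lay between 0.09 and 0.20, the G1 median between 0.08 and 0.18, and the mitotic median between -0.05 and 0.07. The order of G1 and S between themselves changed with cyclic loess and with the mean of a gene's probes. Ccnd1 lay between 0.72 and 0.83 and Cdk6 between 0.34 and 0.67.

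**Figure D5:**
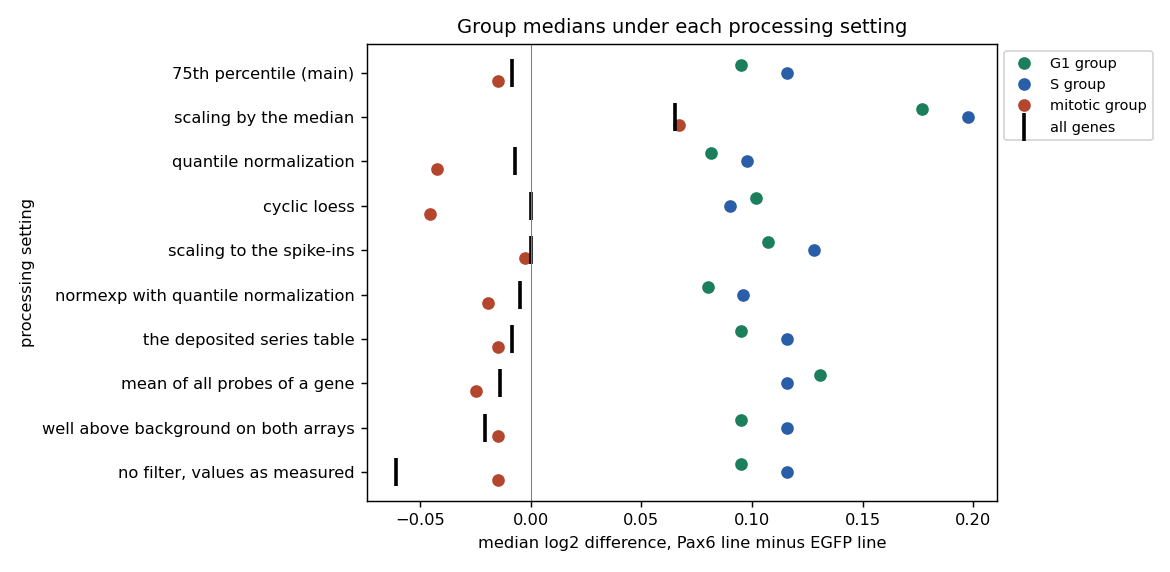
Median log2 difference, Pax6 line minus EGFP line (x axis), of the G1, S and mitotic groups (points) and of all genes (black bars) under each processing setting (y axis). The mitotic medians stay beside the bar for all genes, while the G1 and S medians lie to its right, at 0.18 and 0.20 after scaling by the median.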

How the data were processed

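Total RNA of 2 lines was measured on 1 Agilent one-colour whole mouse genome array each, with ISOGEN-extracted RNA and Cy3 labelling, per the labels' protocols. Per the file headers, the authors read the spots in Feature Extraction (10.7.3.1). Its processed signals are intensity values with background subtracted and a spatial trend removed inside each array, without normalization between arrays, per the file headers. Deposited flags (unit other) mark spots well above background (13 SDs), saturated or outliers, per the file headers. The intensity values of the deposited series table were identical.

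Outlier spots were left out, keeping 43283 spots of 41168 probes. Signals were put on the log2 scale and each array's 75th percentile was subtracted. Spots of a probe were averaged, and a gene took its brightest probe by the mean over both arrays, used when at least a share of 0.5 of its spots were well above background on 1 array or more. Of 41168 probes 22951 took a current symbol by accession, and others kept the array's name. A gene above background on 1 array has a lower bound only, against its own dim value or the lowest signal called above background (10.3 for EGFP, 9.63 for Pax6), whichever was higher. Coordinates of probes are the array design's (mm7), with no annotation of exons in that build.

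Genes were counted by size (2-fold) with no test. Every member was named, with genes of other lists at least 2-fold different (up to 4) or else the lowest and highest. Marker genes were named in part, chosen with their values seen. One list value is not reported here. Further members of the Cdk inhibitor list were named after their values were seen. The members and lists were chosen with earlier results of these data known. Alternatives were other scalings (median, quantile, cyclic loess, spike-ins), normexp (offset 50) followed by quantile normalization, the series table, the mean of a gene's probes, other filters and a 1.5-fold rule, with limma 3.58.1 in R 4.3.3. The steps were tested on simulated data.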

Additional observations from a re-analysis of the deposited data

How the results depend on the processing

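With 1 array per line the number of arrays limits every comparison, and signal over background limits little here, since all 44 genes were bright enough on both arrays. No paired analysis was possible because each line has 1 array and the labels carry no replicate numbers. Scaling by the median of each array moved the group medians to 0.18 (G1), 0.20 (S) and 0.067 (mitotic), and the median of all genes from -0.01 to 0.07. With the mean of a gene's probes 1 member, Ccne1 at 1.67, was at least 2-fold higher, in place of 0, because its second probe enters the mean. At the 1.5-fold rule 2 were higher. The other 42 of 47 values of these counts and medians moved by less than the SD of replicate spots (0.08) or kept the count. Of 396 values of single members under 9 alternatives, 392 moved by less than their measurement error. The other 4 were Ccne1, Cdk6 (0.34), Rb1 (0.32, a change of sign) and Top2a (-0.23), all with the mean of a gene's probes. The change of sign for Rb1 rests on its dim probe, above background on the Pax6 array alone, which fixed that probe's side of 0. Only 4 of the 9 alternatives change differences between members. The series table and the filters left every member's value as it was, and scaling by the median or the spike-ins shifted all members alike. Many of the unmoved values, of members and of the counts and medians, were therefore fixed in advance and do not show stability. The sign changed for 7 of the 44 members under a setting that changes differences between genes, and for 8 others only through a shift of all genes together. Over all genes, the count at least 2-fold different was 908, but 285 with normexp background correction and 2539 without a filter on dim probes.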

Other observations

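Genes linked to leaving the cycle moved in both directions between the lines. Of the 9 listed, 8 were measured, 5 of them below 0. Below 0 were also 9914 of all 19243 genes, and 3789 of the 8058 with a mean above the 75th percentile. At least 2-fold higher was 1 of the 8, beside 2.35% of all genes, and 0 were 2-fold lower, beside 2.37%. Gas1, a growth arrest gene, read 163 in the EGFP line and 623 in the Pax6 line, differing by 1.72 ± 0.21 in log2, or 3.29-fold higher, and by 1.40 with normexp background correction. Btg2, an antiproliferative gene that p53 induces, was lower by all 3 probes (-0.93, -0.87 and -0.89, with signals of 1675 and 1021 for the brightest). The related Btg1 read 15332 and 14418 (-0.30). Hes1, a Notch target that holds progenitors in an undifferentiated state, read 121 and 254 (0.85 ± 0.21). The pocket protein gene Rbl2 (-0.08) and the cyclin gene Ccng2 (-0.06), both typical of resting cells, were close to equal, and Cdkn1c did not pass background in either line. The list is short and its members were chosen by name, so the values are a description.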
